A study of Mus musculus with 6 samples.

Results

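The 44 interferon-stimulated genes described here are mouse genes whose transcription rises when a cell receives an interferon signal. They were taken by symbol from a fixed list. A gene counted as measured when at least 1 array probe set carried its symbol and no other in the platform annotation. By this rule 41 of the 44 genes were measured, on 64 probe sets, among 18193 genes measured in all. Oas1g, Isg15 and Ifi44 were not analysed here. The study compared bone marrow cells of mice transplanted with ASXL1-MT and cells of mock-transplanted mice, with 3 Affymetrix arrays for each. ASXL1 is a chromatin regulator that is often mutated in myelodysplastic syndrome and related blood cancers. The ASXL1-MT mice are labelled as having a myelodysplastic syndrome-like disease, and the mock mice as normal controls. Cells carrying CD3e, B220 or TER-119, the surface antigens of T cells, B cells and red cell precursors, were removed with magnetic beads. The series text states this for both groups and the sample labels state it for mock alone. All 6 titles carry the same transplant prefix. Strain, age, the ASXL1 allele, its promoter and what the mock mice received are not given in the sources used here. Nothing in the labels ties a sample to a mouse, a pool or a culture, so p-values cover only the spread among these samples, which may be technical.

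Interferons bind receptors on the cell surface, and the receptors' kinases activate STAT proteins that enter the nucleus. Type I interferon acts mainly on a DNA motif called the interferon-stimulated response element (ISRE), and type II interferon mainly on a motif called the gamma-activated site (GAS). In bone marrow, interferons are known to push blood stem cells out of rest and to shape the output of myeloid cells. The genes fall into those that block viral RNA and protein synthesis (the Ifit, Oas and Mx families), GTPases that attack vacuoles holding intracellular microbes (the Irgm, Gbp and Iigp families), nucleic acid sensors, signalling genes, membrane proteins that restrict virus entry or release, peptide transporters and other effectors.

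All values are log2 signals centred on each probe set's median over the 6 arrays, so a value of 0 is a probe set's own middle and levels cannot be compared between genes. A gene's value is the mean of its probe sets. Each change subtracts the mock mean from the ASXL1-MT mean. Changes were tested with limma over all genes, with a threshold of 0.05 on the adjusted p. The array medians lay between 0.02 and 0.05 in ASXL1-MT and between -0.05 and -0.03 in mock. The median change of all genes was 0.11. Some absolute brightness was recovered from the rounding of the values. A probe set is called bright where its 3 highest arrays lay on the rounding step of signals of 256 or more, if the log base is 2. Values very near 0 are given with few digits and can miss that step. A probe set not called bright may therefore still reach that signal. Of the 41 genes, 36 had a bright probe set, against 9421 of all 18193 genes. Among cell type markers, 9 of 9 monocyte genes and 8 of 10 mature neutrophil genes had one, against 6 of 16 T and NK cell genes and 5 of 11 B cell genes.

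In ASXL1-MT marrow 7 of the 41 interferon-stimulated genes rose and 2 fell. Those that rose were Mx1, Iigp1, Irgm1, Gbp3, Ifi203, Parp9 and Bst2, and those that fell were Ifitm1 and Ifitm2. Of all genes tested, 6.63% rose and 4.75% fell, so the share of fallen members was close to that of all genes. All other measured genes of the set did not pass the test. At an unadjusted p under 0.05 there were 11 higher and 4 lower of the 41 genes, against 18.1% higher and 10.9% lower of all genes, so the lower count was close to the share of all genes there too. The counts rested on each array: 5 rose and 1 fell without ASXL1-MT replicate 1, 2 rose and 1 fell without mock replicate 1, and 1 rose and 1 fell without mock replicate 3. None passed without ASXL1-MT replicate 2 or 3 or mock replicate 2, where 9, 9 and 10 genes were higher and 7, 3 and 4 lower at an unadjusted p under 0.05. In those fits the same was true of 13.8%, 13.4% and 16.1% of all genes as higher and of 9.78%, 9.44% and 9.33% as lower. In 12 genes all 3 ASXL1-MT arrays lay above all 3 mock arrays, as in 23.5% of all genes, and in 10 genes all lay below, as in 14.4% of all genes. The 41 changes ran from -2.67 for Ifitm1 to 1.85 for Iigp1. Their median was -0.11, or -0.21 relative to the median of all genes. The tissue was measured in bulk, so fewer cells of a type and less RNA per cell cannot be told apart.

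Scaling the arrays in another way moved the balance of calls. Rising genes made up 58.3% of all calls on the deposited values, but 47.6% after quantile normalization, 46.6% after cyclic loess and 49.3% with array medians set equal. Among the interferon-stimulated genes the share was 77.8%, against 66.7%, 62.5% and 71.4% under those settings. Cyclic loess moved the median change of all genes by -0.10.

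**Figure D1:**
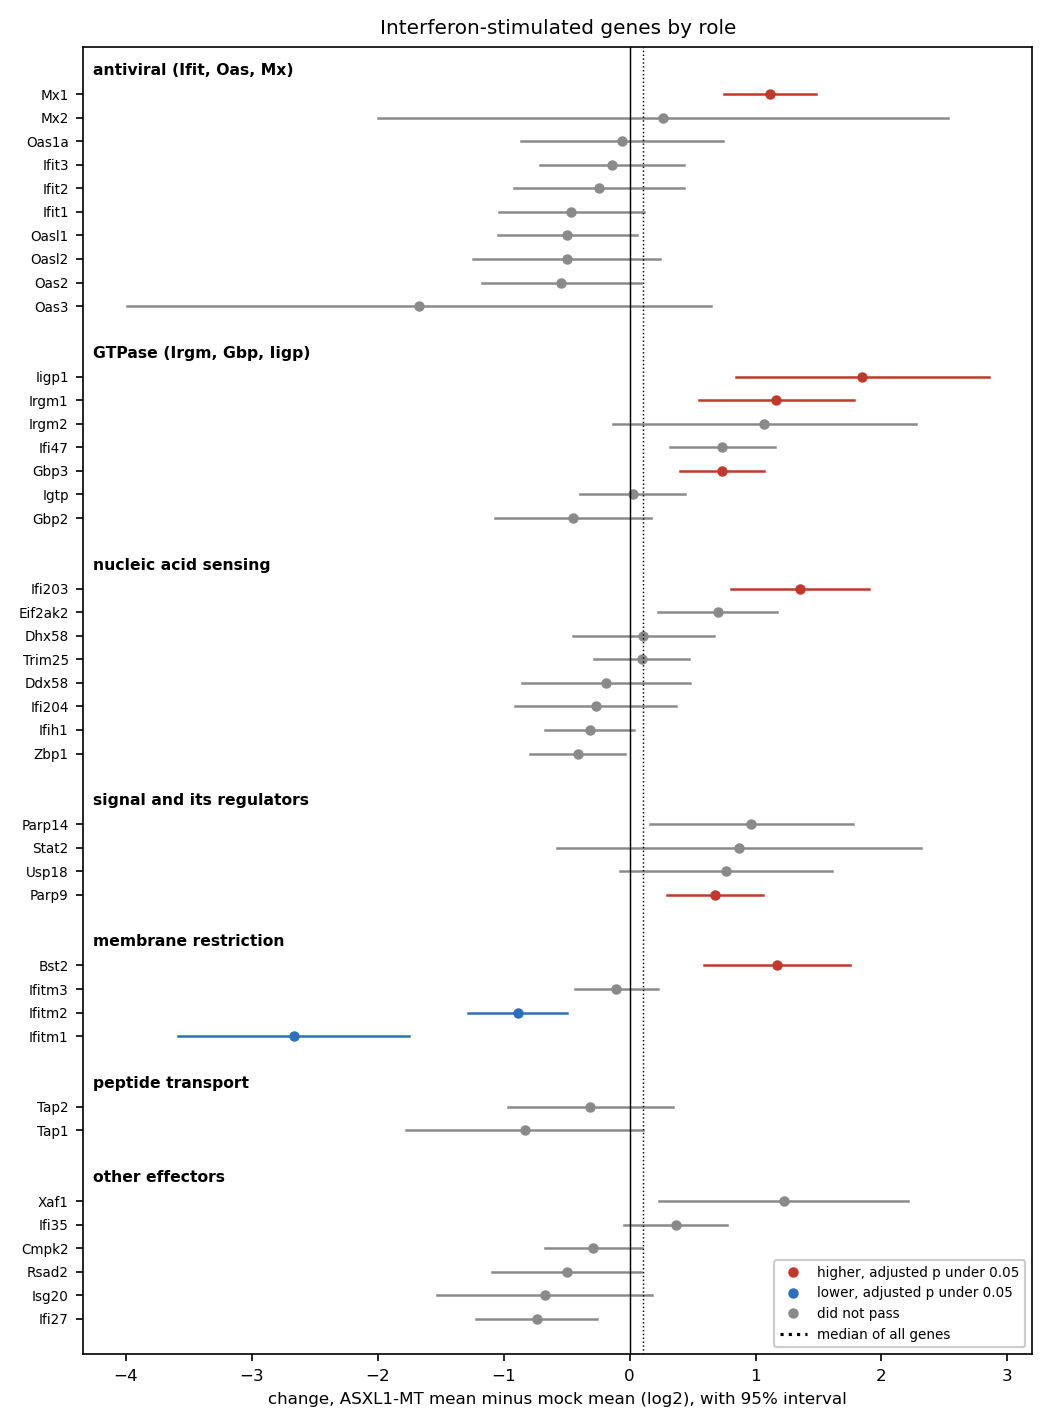
Change of each of the 41 measured interferon-stimulated genes (x axis, log2, ASXL1-MT mean minus mock mean, with limma's 95% interval), grouped by role down the page; the dotted line is the median of all genes, 0.11. Red points (7 genes) passed as higher and blue points (2 genes) as lower, and GTPase genes lie mostly right of 0 while antiviral genes lie mostly left of it.

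The promoters of 6 of these genes are shown because they let a reader see the interferon response elements next to the changes. Windows of 250 bases before to 50 bases after a gene's start were given in the RefSeq table of build GRCm38.p6 for 29 of the 41 measured genes. The letters GAAA, any 2 bases and GAAA again were searched as the ISRE, and on the other strand TTTC, any 2 bases and TTTC again. They occurred in 18 of the 29 genes, against 3.98% of 26994 genes in the table. The letters TTCNNNGAA, which read the same on both strands, were searched as the GAS and occurred in 9 of the 29, against 9.55%. Copies of a motif were counted also where they overlapped each other. The ISRE letters were found in 4 of 4 genes that rose, 1 of 2 that fell and 13 of 23 that did not pass. Mx1, Iigp1 and Parp9, which also rose, had no window and were not searched. The GAS letters were found in 1 of the 4 that rose, 0 of the 2 that fell and 8 of the 23. By role the ISRE letters were found in 5 of 6 GTPase, 4 of 7 antiviral, 4 of 5 sensing, 1 of 1 signalling, 3 of 4 membrane, 0 of 1 peptide transport and 1 of 5 other effector genes. The GAS letters were found in 2 of the 6 GTPase and 2 of the 7 antiviral genes. A match is a description of these letters and not a mapped binding site. Ifi203 and Ifitm1 have the largest called rise and fall among the genes shown here, and Gbp3 the smallest p of the GTPase genes; Mx1 and Iigp1 are not shown. Irgm1, Ifit1 and Ifitm3 were added after their values were seen. Each runs 5′ to 3′ along the gene's strand from 150 bases before to 30 bases after the start, with ISRE letters in capitals.
Ifi203: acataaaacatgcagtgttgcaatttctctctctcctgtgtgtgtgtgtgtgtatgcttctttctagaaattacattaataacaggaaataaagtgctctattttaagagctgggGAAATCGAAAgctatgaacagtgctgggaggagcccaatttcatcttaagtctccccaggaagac
Gbp3: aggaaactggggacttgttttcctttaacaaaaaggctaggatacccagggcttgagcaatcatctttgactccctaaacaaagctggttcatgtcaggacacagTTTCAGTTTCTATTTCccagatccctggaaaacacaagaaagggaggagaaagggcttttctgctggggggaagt
Irgm1: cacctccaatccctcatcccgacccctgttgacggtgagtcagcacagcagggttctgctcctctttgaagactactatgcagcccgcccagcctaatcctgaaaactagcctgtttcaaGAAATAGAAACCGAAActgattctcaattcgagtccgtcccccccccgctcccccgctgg
Ifit1: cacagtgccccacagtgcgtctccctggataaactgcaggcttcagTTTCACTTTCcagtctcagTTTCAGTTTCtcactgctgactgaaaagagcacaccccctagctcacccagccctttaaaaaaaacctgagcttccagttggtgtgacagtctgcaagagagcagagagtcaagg
Ifitm1: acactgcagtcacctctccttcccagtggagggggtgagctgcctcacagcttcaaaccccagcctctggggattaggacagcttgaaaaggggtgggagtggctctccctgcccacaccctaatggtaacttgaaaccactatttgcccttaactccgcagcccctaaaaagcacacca
Ifitm3: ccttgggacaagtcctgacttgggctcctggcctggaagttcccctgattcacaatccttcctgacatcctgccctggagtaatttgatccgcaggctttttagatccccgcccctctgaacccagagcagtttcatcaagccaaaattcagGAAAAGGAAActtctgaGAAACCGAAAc

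The window of Ifi203 is chr1:173942463-173942642 on the minus strand, that of Gbp3 chr3:142559894-142560073 on the plus strand and that of Irgm1 chr11:48871391-48871570 on the minus strand. The window of Ifit1 is chr19:34640739-34640918 on the plus strand, that of Ifitm1 chr7:140967926-140968105 on the plus strand and that of Ifitm3 chr7:141010715-141010894 on the minus strand. Gbp3 and Irgm1, GTPase genes that rose, each hold a pair of overlapping copies close before the start, beginning at positions -45 and -39 in Gbp3 and -30 and -24 in Irgm1. Oas1a, an antiviral gene that did not pass and is not shown, also holds an overlapping pair, beginning at -20 and -14. Ifit1, another antiviral gene that did not pass, holds a separate pair beginning at -104 and -85. Ifitm3, which did not pass, has copies just after the start, beginning at positions 3 and 20. The genes that fell had these letters in Ifitm2, with a copy beginning at -46, and not in the window of Ifitm1.

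Of the 10 measured antiviral genes, 1 rose and none fell in limma's test, and the same was true at an unadjusted p under 0.05. For this and each role below, the shares of all genes were 6.63% risen and 4.75% fallen. At an unadjusted p under 0.05 those shares were 18.1% higher and 10.9% lower. Of all 18193 genes, 10304 had a positive change and 7889 a negative one. Mx1, a dynamin-like GTPase that blocks influenza-type viruses in the nucleus, rose. It stood at 0.42, 0.67 and 0.63 in ASXL1-MT arrays, against -0.60, -0.60 and -0.42 in mock arrays. All ASXL1-MT arrays were above all mock arrays, and the arrays of each group lay close together. The change was 1.12 (SE 0.14), a 2.17-fold higher signal, with limma's adjusted p = 0.0154. With 1 array left out, the change stayed between 1.07 and 1.19. The call held without ASXL1-MT replicate 1 (adjusted p = 0.0393) and without mock replicate 1 (0.0485) or 3 (0.048), and missed without ASXL1-MT replicate 2 (0.0638) or 3 (0.0729) or mock replicate 2 (0.057).

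The other 9 antiviral genes did not pass, and 8 of them had a negative change. The Ifit genes encode proteins that bind viral RNA ends and hold back translation. Their changes were -0.46 (SE 0.23) for Ifit1, -0.24 (SE 0.27) for Ifit2 and -0.14 (SE 0.23) for Ifit3, where the last turned to 0.01 without mock replicate 1. Ifit1 was the only Ifit gene whose groups did not overlap, and there the nearest arrays, ASXL1-MT replicate 3 and mock replicate 3, both lay at about 0.

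The Oas genes encode enzymes that sense double-stranded RNA and make the activator of RNase L, and the Oas-like genes are their relatives. The changes were -0.54 (SE 0.25) for Oas2, -0.49 (SE 0.22) for Oasl1, -0.50 (SE 0.29) for Oasl2 and -0.06 (SE 0.32) for Oas1a, none past the test. Oas3 gave -1.67 (SE 0.92), set by ASXL1-MT replicate 1 at -3.48, and without that array the change was -0.63. Mx2, the relative of Mx1, gave 0.27 (SE 0.90), with arrays from -0.98 to 1.83 in ASXL1-MT and from -1.18 to 0.93 in mock. Its probe set was not bright, nor were those of Ifit1 and Oas3.

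Among the 7 GTPase genes 3 rose and none fell in limma's test, with 4 higher and 0 lower at an unadjusted p under 0.05. Iigp1, an immunity-related GTPase that coats the vacuoles of parasites and bacteria, had the largest rise of the 41 genes. It stood at 1.08, 1.11 and 0.40 in ASXL1-MT arrays, against -1.73, -0.54 and -0.67 in mock arrays. All ASXL1-MT arrays lay above all mock arrays, of which mock replicate 1 was by far the lowest. The change was 1.85 (SE 0.40), a 3.60-fold higher signal, with limma's adjusted p = 0.0454. No fit that left out 1 array passed, with adjusted p from 0.0683 to 0.137. Without mock replicate 1 the change was 1.47. The call was also lost under the 3 other scalings, with adjusted p from 0.0506 to 0.0545. Neither of its 2 probe sets was bright. Mock replicate 1 also had the lowest mean of the 16 T and NK cell marker genes, at -1.83, against 0.41 and 0.12 in the other mock arrays and 0.00 to 0.33 in ASXL1-MT arrays. The mean of mock replicate 1 was also the lowest for macrophage (-1.23), erythroid (-1.16), endothelial and stromal (-0.81) and B cell (-0.51) marker genes. Over all genes its mean was lowest too, at -0.13, but not in the other marker lists. The part of any of these cell types in the Iigp1 signal was not tested.

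Irgm1, a regulatory immunity-related GTPase that governs the effector ones and autophagy, rose as well. It stood at 0.28, 1.04 and 0.93 in ASXL1-MT arrays, against -0.40, -0.28 and -0.55 in mock arrays. Again no array of one group reached the other, with ASXL1-MT replicate 1 nearest to mock. The change was 1.16 (SE 0.24), 2.24-fold higher, with limma's adjusted p = 0.0419. The call held without ASXL1-MT replicate 1 (adjusted p = 0.0362) and was lost without any other single array, with adjusted p from 0.0998 to 0.139. A robust variance trend also ended it (0.0756).

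Gbp3, a guanylate-binding protein that helps break open pathogen vacuoles, showed the smallest rise of the 3 GTPase genes and the tightest groups. It stood at 0.28, 0.39 and 0.44 in ASXL1-MT arrays, against -0.28, -0.36 and -0.45 in mock arrays. All ASXL1-MT arrays lay above all mock arrays. The change was 0.73 (SE 0.13), 1.66-fold higher, with limma's adjusted p = 0.0295. With an array left out adjusted p ran from 0.062 to 0.116, so it passed in none of those 6 fits.

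The other 4 GTPase genes did not pass. Ifi47, an effector immunity-related GTPase, missed narrowly at 0.73 (SE 0.17, limma's adjusted p = 0.0503), and its groups did not overlap. It passed in 4 of 7 alternative settings with all arrays. That count leaves out the fit with replicate number as a block, where Ifi47 missed (adjusted p = 0.127). Irgm2, the second regulatory member, stood at -0.06, 1.40 and 1.64 in ASXL1-MT arrays, against 0.06, -0.14 and -0.16 in mock arrays. ASXL1-MT replicate 1 lay among the mock arrays and the other ASXL1-MT arrays far above them. Its change of 1.07 (SE 0.48, adjusted p = 0.211) became 1.60 (adjusted p = 0.0336) without ASXL1-MT replicate 1. Igtp, the third regulatory member, had a change of 0.03, with an interval from -0.39 to 0.44, and was negative under all 3 other scalings. Gbp2, another guanylate-binding protein, had a change of -0.45 (SE 0.25), and its 2 bright probe sets gave -0.42 and -0.48.

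**Figure D2:**
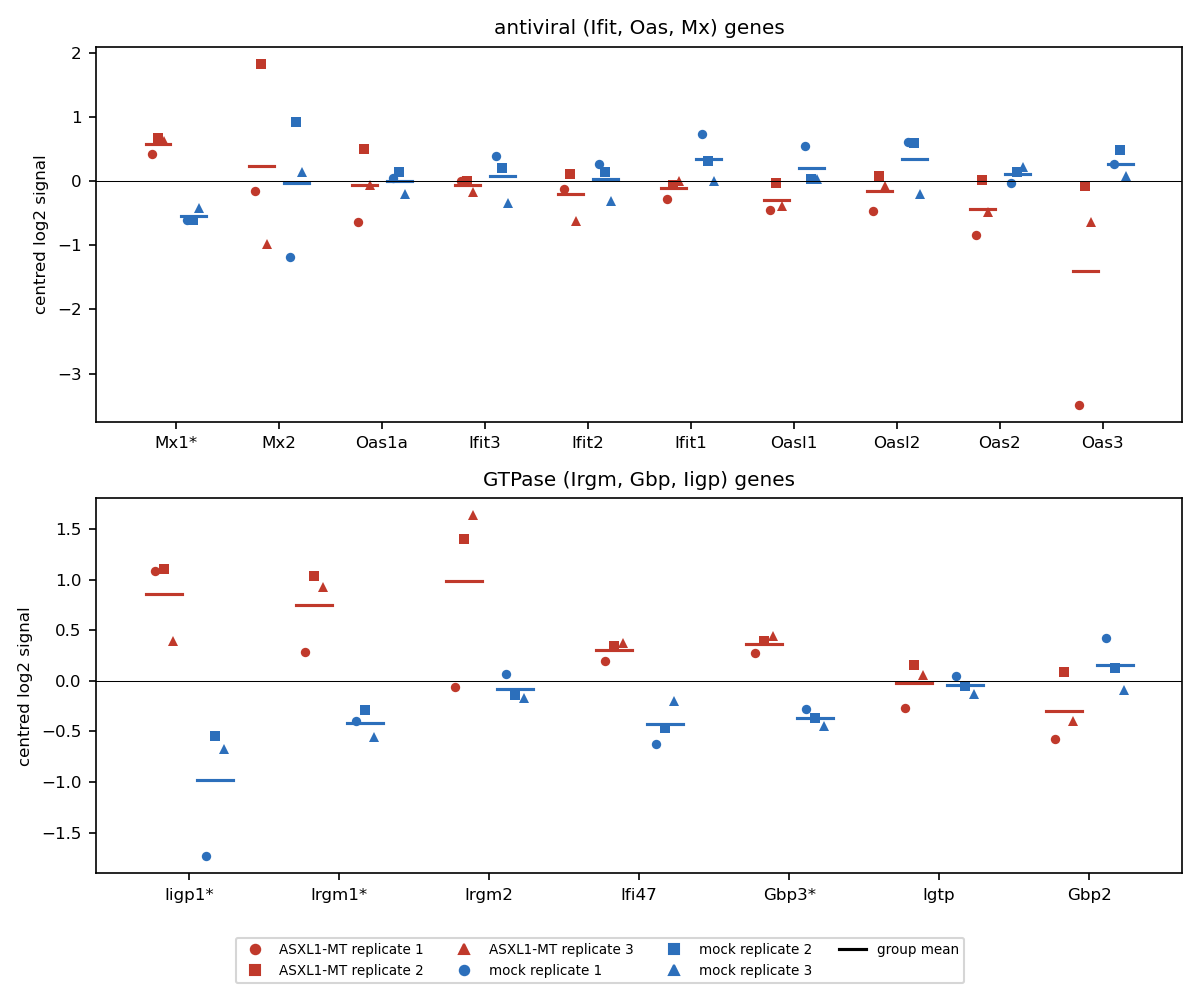
Centred log2 signal (y axis) of the 10 antiviral genes (top) and 7 GTPase genes (bottom) in each array, ASXL1-MT in red left of mock in blue, with bars for group means and an asterisk where limma's adjusted p was under 0.05. Mx1 stands apart among the antiviral genes, and Iigp1, Irgm1, Ifi47 and Gbp3 have all red points above all blue ones.

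Side by side, the antiviral and GTPase sets had median changes of opposite sign. The antiviral set had a median of -0.35 (-0.46 when the median of all genes is taken off), and the GTPase set one of 0.73 (0.63). Per array, the GTPase median was 0.20, 0.39 and 0.40 in ASXL1-MT cells, against -0.28, -0.28 and -0.20 in mock cells. Here every ASXL1-MT array lay above every mock array. The antiviral median per array was -0.36, 0.05 and -0.28 in ASXL1-MT cells, against 0.27, 0.18 and -0.10 in mock cells. These overlapped, since ASXL1-MT replicate 2 lay above mock replicate 3. The changes also spread differently, from -1.67 to 1.12 over antiviral genes and from -0.45 to 1.85 over GTPase genes. The difference between the sets is a description and was not tested. Both medians kept their sign under all alternatives run.

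Of 8 genes that sense nucleic acids, 1 rose and none fell in limma's test, with 2 higher and 1 lower at an unadjusted p under 0.05. Ifi203, a member of the mouse HIN-200 family of DNA-binding proteins, rose. It stood at 0.40, 0.82 and 0.72 in ASXL1-MT arrays, against -0.40, -0.71 and -0.999 in mock arrays. The groups did not overlap. The change was 1.36 (SE 0.22), 2.56-fold higher, with limma's adjusted p = 0.0233, on 1 probe set that was not bright. The call held without ASXL1-MT replicate 1 (adjusted p = 0.0469) or mock replicate 1 (0.0439) and was lost without any of the other 4 arrays, with adjusted p from 0.0642 to 0.0922.

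Eif2ak2 encodes PKR, the kinase that stops translation on double-stranded RNA. It stood at 0.33, 0.62 and 0.04 in ASXL1-MT arrays, against -0.44, -0.35 and -0.32 in mock arrays. The groups did not overlap, but the gene missed the threshold at 0.70 (SE 0.19, limma's adjusted p = 0.0742). Its probe sets differed: both bright ones gave 0.85 and 1.03, and the other gave 0.22. The one at 0.85 passed over all probe sets (adjusted p = 0.0335). The gene passed in 4 of 8 alternative settings with all arrays, among them bright probe sets alone (0.94, adjusted p = 0.00348). That count leaves out the fit with replicate number as a block, where the gene missed (adjusted p = 0.169).

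The RNA sensors showed smaller values. Ifih1 (MDA5) had a change of -0.32 (SE 0.14), Ddx58 (RIG-I) -0.19 (SE 0.27) and Dhx58 (LGP2) 0.11 (SE 0.22). Trim25, the ubiquitin ligase acting on RIG-I, had 0.10 (SE 0.15) and turned negative under quantile normalization and cyclic loess, and Dhx58 did so under cyclic loess. Zbp1, a sensor of Z-form nucleic acids, had -0.41 (SE 0.15, adjusted p = 0.143), and Ifi204, another HIN-200 protein, had -0.27 (SE 0.25). The median of the sensing genes was -0.05, or -0.16 relative to all genes.

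All 4 measured genes of the signal and its regulators had positive changes, as did 10304 of all 18193 genes. Of the 4 genes 1 passed. Parp9, a catalytically weak ADP-ribosyltransferase relative that boosts interferon-driven transcription, rose. It stood at 0.22, 0.59 and 0.38 in ASXL1-MT arrays, against -0.32, -0.22 and -0.31 in mock arrays. All ASXL1-MT arrays were above all mock arrays, and they were the more spread. The change was 0.68 (SE 0.15), 1.60-fold higher, with limma's adjusted p = 0.0493. Leaving out any 1 array ended the call, with adjusted p from 0.0672 to 0.148. So did each of the 3 other scalings, with adjusted p from 0.0622 to 0.0644.

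Parp14, an ADP-ribosyltransferase of the same family, had 0.97 (SE 0.32, adjusted p = 0.117), and without ASXL1-MT replicate 1 it had 1.28 (adjusted p = 0.0477). Usp18, which removes ISG15 from proteins and dampens the type I receptor, had 0.77 (SE 0.34, adjusted p = 0.204). Stat2, a transcription factor of type I signalling, had 0.87 (SE 0.57, adjusted p = 0.381). There mock replicate 2 lay at -2.03, and without it the change was 0.26. The median of the 4 genes was 0.82, or 0.71 relative to all genes.

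The membrane proteins that restrict viruses moved in both directions, with 1 higher and 2 lower of 4. Ifitm1, which sits at the cell surface and hinders virus fusion, fell most of the 41 genes. It stood at -1.77, -1.03 and -1.02 in ASXL1-MT arrays, against 2.02, 1.15 and 1.02 in mock arrays. All ASXL1-MT arrays lay far below all mock arrays. The change was -2.67 (SE 0.36), 6.35-fold lower, with limma's adjusted p = 0.0172. The call held without ASXL1-MT replicate 1 (adjusted p = 0.0449) and without mock replicate 1 (0.0416) or 3 (0.0494), and was lost without any of the other 3 arrays, with adjusted p from 0.0535 to 0.0669.

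Ifitm2, a close relative found in endosomes, fell less. It stood at -0.30, -0.47 and -0.41 in ASXL1-MT arrays, against 0.67, 0.53 and 0.30 in mock arrays. Every ASXL1-MT array was below every mock array. The change was -0.89 (SE 0.16), 1.85-fold lower, with limma's adjusted p = 0.0276. With an array left out adjusted p ran from 0.0537 to 0.105. Ifitm3, the endosomal family member best known for blocking influenza virus entry, stood at -0.20, -0.03 and 0.00 in ASXL1-MT arrays, against 0.00, 0.07 and 0.02 in mock arrays. These overlapped, and the change was -0.11 with an interval from -0.44 to 0.22. The 3 genes lie next to each other on chromosome 7, with Ifitm5 on one side and Ifitm6 on the other. Ifitm6, counted among other inducible genes, fell by 1.03 on the log2 scale (SE 0.14, limma's adjusted p = 0.018). Members of this family are alike in sequence, and how far their probe sets share signal was not tested.

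Bst2, or tetherin, holds newly made virus particles at the cell surface and is in mice also an antigen of plasmacytoid dendritic cells. It stood at 0.78, 1.17 and 0.37 in ASXL1-MT arrays, against -0.38, -0.43 and -0.37 in mock arrays. The mock arrays lay within a narrow band, and all ASXL1-MT arrays were above it. The change was 1.17 (SE 0.23), 2.25-fold higher, with limma's adjusted p = 0.0362. With an array left out adjusted p ran from 0.0614 to 0.104, so no such fit passed. It also missed after quantile normalization (adjusted p = 0.0504) and with a robust variance trend (0.0853).

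Some cell type markers also differed between the groups, where 6.63% of all genes rose and 4.75% fell. Of 9 plasmacytoid dendritic cell genes 5 rose and 1 fell, and their mean per array was 0.84, 0.65 and 0.26 in ASXL1-MT cells, against -0.98, -0.87 and -1.12 in mock cells. Siglech, a marker of these cells, was 11.9-fold higher (limma's adjusted p = 0.0457) on a probe set that was not bright. Its mock arrays were spread, at -3.89, -0.92 and -2.02. The gene of this list that fell was Lair1, with a change of -0.85 (adjusted p = 0.0335). Mouse plasmacytoid dendritic cells carry B220, one of the antigens used for depletion. Of 10 mature neutrophil genes none rose and 8 fell, with a mean per array of -1.10, -1.06 and -1.35 in ASXL1-MT cells, against 1.06, 0.95 and 0.96 in mock cells. Of 8 megakaryocyte genes 5 fell and none rose, and of 11 stem and progenitor genes 5 rose and 1 fell. Monocyte genes passed in 1 of 9 cases, as lower, and 1 of 10 macrophage genes rose and 2 fell. Rises were seen in 4 of 16 genes of T and NK cells and in 3 of 11 B cell genes, and 2 of 11 endothelial and stromal genes rose and 1 fell. All 8 erythroid genes had positive changes with a median of 1.14, where 10304 of all 18193 genes had a positive change. Of the erythroid genes 1 rose, Alas2, the heme synthesis enzyme of red cell precursors (15.8-fold higher, limma's adjusted p = 0.043). The probe set of Alas2 was not bright, and its ASXL1-MT arrays stood at 3.58, 1.09 and 1.08. The erythroid mean per array was 1.60, 0.57 and 0.05 in ASXL1-MT cells, against -1.16, -0.85 and -0.16 in mock cells. The samples were depleted of TER-119 cells. No level of any marker can be read from centred values. The part of these cell types in the changes of Bst2, Ifitm1, Ifitm2 and the GTPase genes was not tested.

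**Figure D3:**
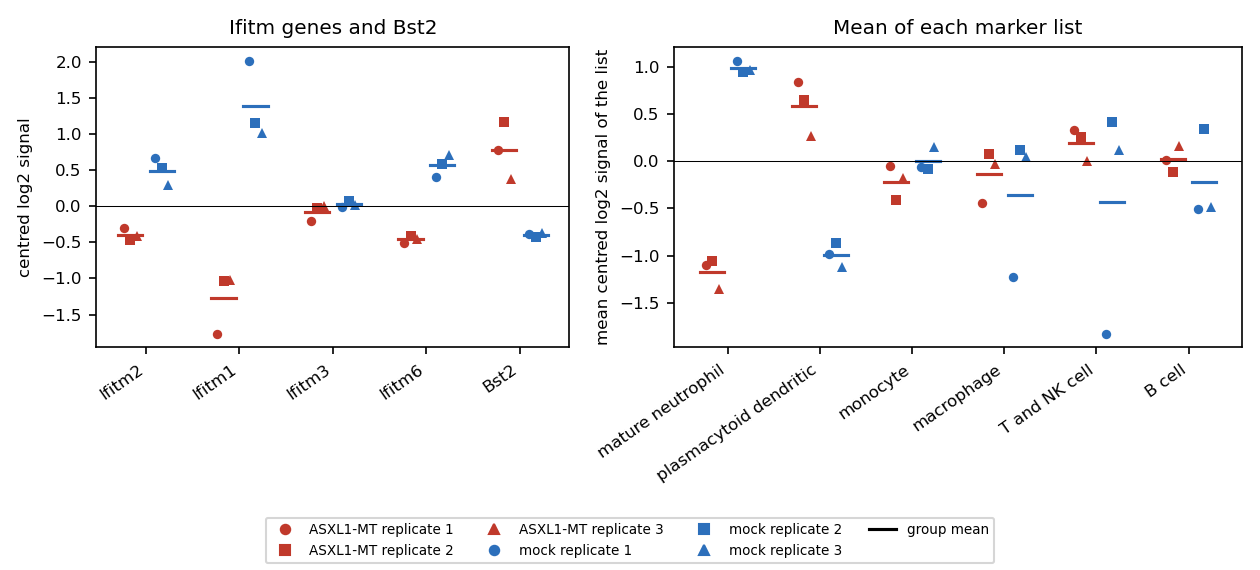
Left, centred log2 signal (y axis) of 4 Ifitm genes and Bst2 in each array; right, the mean centred log2 signal per array of 6 cell type marker lists. ASXL1-MT is in red left of mock in blue, and bars are group means. Ifitm1, Ifitm2, Ifitm6 and the neutrophil list are lower, and Bst2 and the plasmacytoid dendritic list higher, in every ASXL1-MT array than in every mock array. Among lists not shown, the megakaryocyte list was likewise lower. The erythroid, the stem and progenitor and the endothelial and stromal lists, also not shown, were likewise higher.

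Both peptide transporter genes, which load antigen peptides for MHC class I, had negative changes that did not pass. Tap1 stood at -0.77, 0.00 and -1.30 in ASXL1-MT arrays, against 0.17, 0.42 and -0.16 in mock arrays. Tap2 stood at 0.08, -0.08 and -0.63 in ASXL1-MT arrays, against -0.22, 0.31 and 0.22 in mock arrays. The groups overlapped in both genes. Tap1 had a change of -0.83 (SE 0.37, limma's adjusted p = 0.215) and Tap2 one of -0.31 (SE 0.26, adjusted p = 0.489). The value of Tap1 rested on probe sets that were not bright, and its bright one alone gave 0.21.

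None of the 6 other effectors passed in limma's test, and at an unadjusted p under 0.05 there were 1 higher and 1 lower. Ifi27, a small membrane protein, stood at -0.63, -0.16 and -0.31 in ASXL1-MT arrays, against 0.16, 0.47 and 0.47 in mock arrays. All ASXL1-MT arrays were below all mock arrays, and the change was -0.74 (SE 0.19, limma's adjusted p = 0.0678). It passed in 5 of 8 alternative settings with all arrays. That count leaves out the fit with replicate number as a block, where Ifi27 missed (adjusted p = 0.122). Xaf1, which opposes the apoptosis inhibitor XIAP, stood at 0.31, 0.48 and 0.53 in ASXL1-MT arrays, against -0.32, -0.39 and -1.64 in mock arrays. The groups did not overlap, mock replicate 3 was far below the rest, and the change of 1.22 (SE 0.39, adjusted p = 0.11) was 0.79 (adjusted p = 0.0724) without it.

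The remaining effectors lay closer to the median of all genes. Rsad2 (viperin), which makes a chain-terminating nucleotide, had -0.50 (SE 0.23), and Cmpk2, the nucleotide kinase encoded next to it, had -0.29 (SE 0.15). Isg20, an RNA exonuclease, had -0.68 (SE 0.34), and Ifi35, a leucine zipper protein, had 0.37 (SE 0.16). The groups did not overlap in Rsad2, Cmpk2 and Ifi35.

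Probe sets of the same gene mostly, but not always, gave the same direction. Over all 45037 probe sets, 4.73% rose and 3.37% fell. Of the 64 member probe sets 5 rose, 1 each of Mx1, Ifi203, Eif2ak2, Gbp3 and Bst2, and 2 fell, those of Ifitm1 and Ifitm2. The single probe sets of Irgm1 and Parp9 missed over all probe sets, at adjusted p = 0.0543 and 0.0665, and both of Iigp1 missed at 0.0584 and 0.0689. In 15 genes with several probe sets the clearest split was in Tap1, whose 4 gave -2.68, -1.60, 0.21 and 0.74. Stat2 gave 1.76 on its bright probe set and -0.03 on the other. Directions were mixed also in Ddx58, Dhx58, Trim25 and Cmpk2. Both probe sets of Ifi27 (-0.85 and -0.63), both of Iigp1 (2.08 and 1.62) and all 3 of Ifi35 (0.32, 0.38 and 0.40) pointed the same way.

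**Figure D4:**
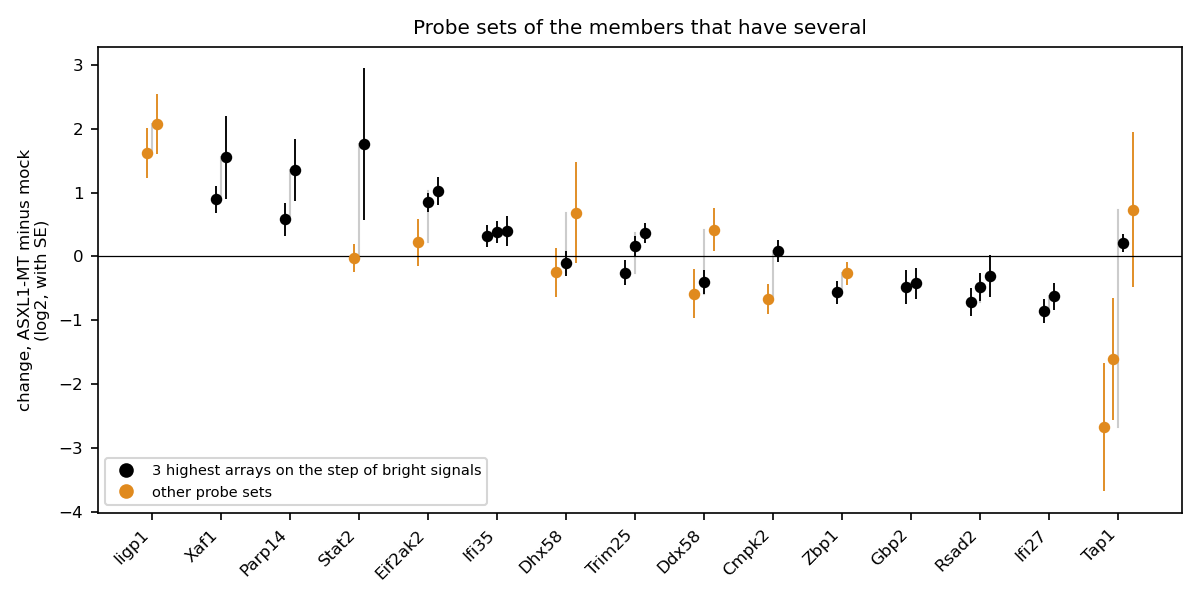
Change of each probe set (y axis, log2, ASXL1-MT minus mock, with SE) for the 15 interferon-stimulated genes that have several; black points are bright probe sets and orange points the others. The probe sets of Iigp1, Xaf1, Ifi35 and Ifi27 lie on one side of 0, and those of Tap1 run from -2.68 to 0.74.

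The rest of the interferon pathway was described with lists of 105 further genes, of which 82 were measured, 10 rose and 5 fell. These were 12.2% and 6.10% of the 82 genes, against 6.63% and 4.75% of all genes. The share that fell was close to that of all genes. None of 10 interferon ligands, 6 receptor chains or 4 signal transducers passed in limma's test. At an unadjusted p under 0.05, 1 ligand was lower, 2 receptor chains were higher and 1 lower, and 1 transducer was lower. Of all genes, 18.1% were higher and 10.9% lower at that p. None of the ligands had a bright probe set, and their changes ran from -1.93 for Ifna4 to 2.20 for Ifng. The type I receptor chains had 0.42 (SE 0.14) for Ifnar1 and 0.60 (SE 0.18) for Ifnar2, and the type II receptor chains had -0.25 (SE 0.13) for Ifngr1 and 0.13 (SE 0.20) for Ifngr2. Irf9, which binds DNA in type I signalling, had 0.19, with an interval from -0.22 to 0.60. Irf7, the inducible factor that amplifies type I interferon production, had -0.07, with an interval from -0.43 to 0.29.

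Of 7 interferon regulatory factors Irf8 rose. It is required for dendritic cells and monocytes, and it restrains the granulocyte lineage. It stood at 0.83, 0.77 and 0.73 in ASXL1-MT arrays, against -1.12, -0.67 and -0.88 in mock arrays. The groups were far apart, with a change of 1.67 (SE 0.16) and limma's adjusted p = 0.0106. Leaving out 1 array at a time, the call held in 5 of 6 fits. Of 8 inhibitors of the signal Ptpn1, a phosphatase acting on JAK2 and TYK2, fell by 0.80 on the log2 scale (SE 0.13, adjusted p = 0.0228). Leaving out any 1 array ended this call.

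Among 11 genes that induce interferon 3 rose and 1 fell. Mavs, the mitochondrial adaptor of the RNA sensors, stood at 0.67, 0.78 and 0.65 in ASXL1-MT arrays, against -0.79, -0.94 and -0.89 in mock arrays. Sting1, the adaptor of the DNA sensor cGAS, stood at 0.78, 0.73 and 1.04 in ASXL1-MT arrays, against -0.76, -0.82 and -0.69 in mock arrays. Neither gene's groups came near each other, and both calls held whichever array was left out. The changes were 1.58 (SE 0.13, adjusted p = 0.00779) and 1.61 (SE 0.15, adjusted p = 0.00985) in limma's test. Tlr3, an endosomal receptor for double-stranded RNA, rose by 5.20 on the log2 scale (SE 0.60, adjusted p = 0.0133), with mock arrays from -4.06 to -1.87 and 1 of its 2 probe sets bright. Its call held in 4 of 6 such fits. Myd88, the adaptor of most Toll-like receptors, fell by 0.83 on the log2 scale (SE 0.15, adjusted p = 0.0272) and passed in none of those fits.

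Of 36 other interferon-inducible genes 6 rose and 3 fell, and their median change was 0.28, or 0.17 relative to all genes. The largest rise was that of Ifi202b, a HIN-200 protein of mice, at 2.81 (SE 0.34, limma's adjusted p = 0.0143). Oas1b, an Oas protein linked to flavivirus resistance in mice, rose by 2.60 (SE 0.41, adjusted p = 0.0227), and neither gene had a bright probe set. Lgals3bp, a secreted glycoprotein, rose by 1.12 (SE 0.21, adjusted p = 0.031). Ddx60, a helicase, fell by 1.79 (SE 0.17, adjusted p = 0.01) on the log2 scale, and Cd274 (PD-L1), an immune checkpoint ligand, fell by 1.70 (SE 0.34, adjusted p = 0.0379). With an array left out Ddx60 passed in 5 of 6 fits, Ifi202b in 4, and Oas1b, Lgals3bp, Cd274 and the Ifitm6 described above in 1 each. The other 3 genes that rose, named after their values were seen, were Ly6e, Pml and Nlrc5.

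**Figure D5:**
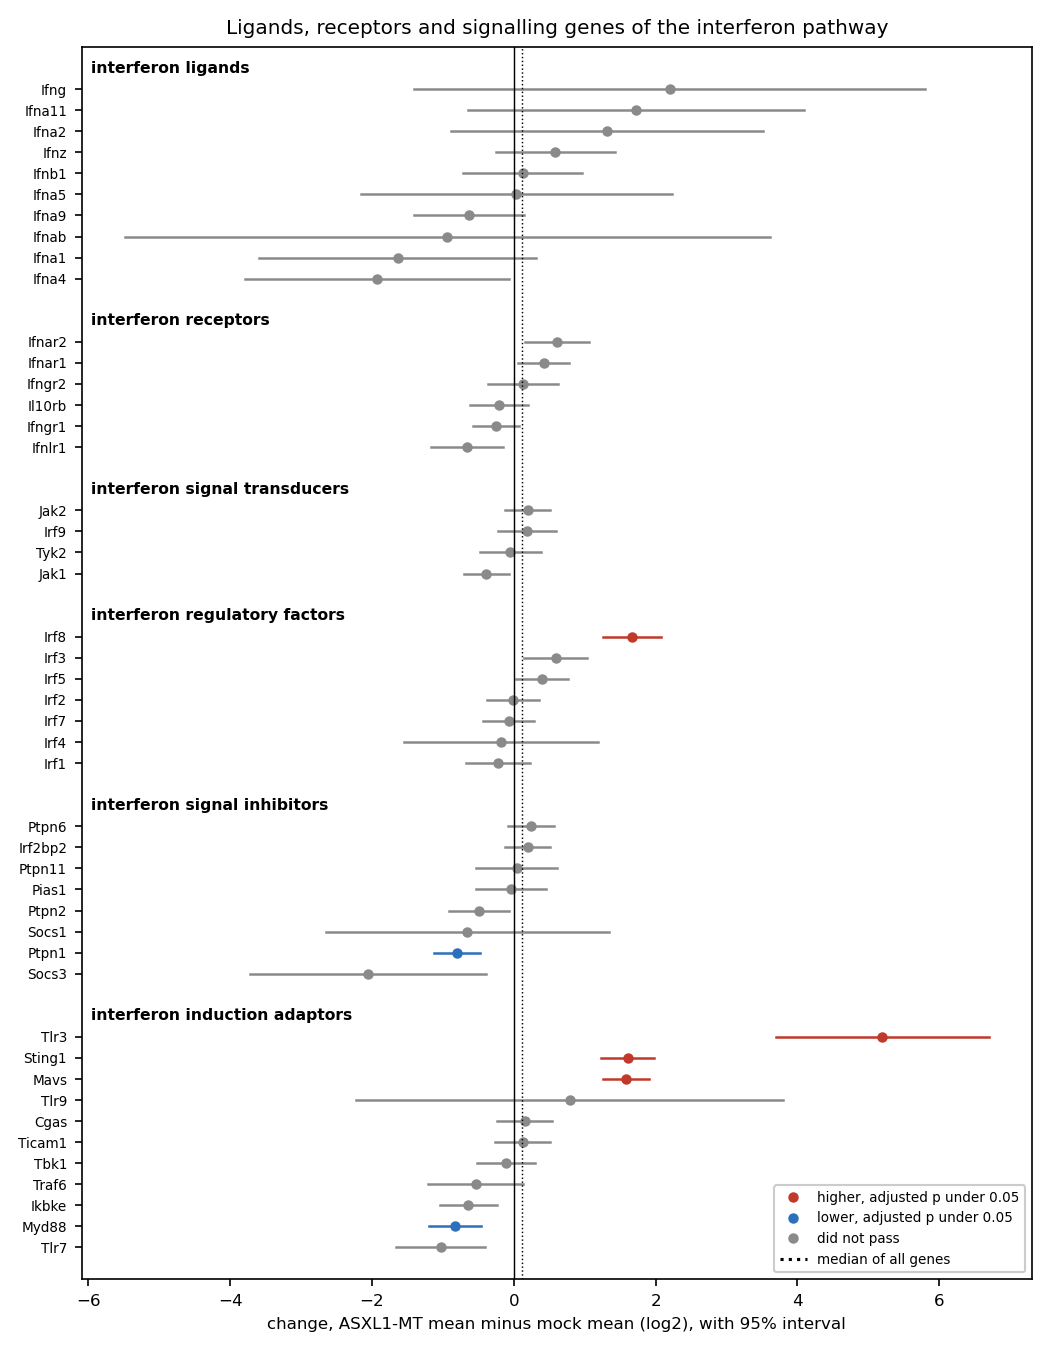
Change (x axis, log2, ASXL1-MT mean minus mock mean, with limma's 95% interval) of the measured ligands, receptors, transducers, regulatory factors, inhibitors and induction adaptors of the interferon pathway; the dotted line is the median of all genes. Irf8, Tlr3, Sting1 and Mavs (red) passed as higher and Ptpn1 and Myd88 (blue) as lower, and no ligand, receptor or transducer passed.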

How the data were processed

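Total RNA of the 6 samples was labelled with biotin and hybridised to Affymetrix mouse expression arrays, and signals were made with MAS5, per the submitters' processing notes. The values the authors deposited are log values, taken here as log2. In each of the 45037 probe sets the middle of the 6 arrays is 0. Log base and centring are not given in the sources used here and were read from the values. Bright probe sets (38.2%) were those whose 3 highest arrays lay on the rounding step of single-precision logs of 8 and above, within 0.1 of a step. No filter on low values was set, so all 41 measured members were tested.

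In the platform annotation 34945 probe sets have 1 symbol, 932 have several and 9160 are unnamed here. A gene was the mean of its 1-symbol probe sets. Groups and replicate numbers came from the sample titles. R 4.3.3 and limma 3.58.1 (lmFit, eBayes) compared the groups without a trend, two-sided, with Benjamini-Hochberg adjustment over all 18193 genes, or over all probe sets where probe sets are given. The fit was tested on simulated data. Tables and figures were made with Python 3.11.15, pandas 2.3.3, numpy 2.4.6 and matplotlib 3.10.9. The number of arrays limits the precision, and an exact permutation test of 3 against 3 cannot go below p = 0.1.

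The members and the pathway and marker lists were chosen with earlier results of these data known. Every measured member is named, with values per array for those past the threshold and for the 2 with the smallest p in a role without one. Of each pathway list up to 6 genes past the threshold are named by size of change, with Irf7 and Irf9 always. Alternatives were other scalings, a variance trend, other choices of probe set, a filter on row means, a replicate block and each array left out.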

Additional observations from a re-analysis of the deposited data

How the results depend on the processing

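The count of interferon-stimulated genes past limma's threshold depended on every array. It was 7 higher and 2 lower on all arrays, and with 1 array left out it ran from 0 to 5 higher and from 0 to 1 lower. It was 0 without ASXL1-MT replicate 2, ASXL1-MT replicate 3 or mock replicate 2, while 9, 9 and 10 genes were higher and 7, 3 and 4 lower at an unadjusted p under 0.05 (over all genes 2509, 2436 and 2933 higher and 1780, 1718 and 1698 lower). Over all genes it ran from 73 to 509 higher, against 1207, and from 119 to 524 lower, against 865, with fewer samples in each such fit. The replicate block gave 0 higher and 0 lower, among all genes as among the interferon-stimulated genes (at an unadjusted p under 0.05, 11 higher and 6 lower of the interferon-stimulated genes, and 15.1% higher and 9.97% lower of all genes). Correlations of the deviations of same-numbered samples from their group means lay between -0.012 and -0.0088. Those of differently numbered samples lay between 0.0024 and 0.0066. These values cannot show whether samples were paired, because deviations within a group cancel out and most probe sets were not bright. Quantile normalization left 4 higher genes, without Iigp1, Parp9 and Bst2. Bright probe sets alone gave 9 higher and 4 lower of 36 genes, and 2600 higher and 1528 lower over all genes, with fewer genes tested. The probe set with the smallest spread gave 2462 higher and 1436 lower over all genes. It was picked by the spread within groups of these same arrays, which by itself favours more calls. This setting is among those in which Ifi47, Eif2ak2 and Ifi27 passed. The GTPase median was 0.64 after quantile normalization, 0.63 after cyclic loess, 1.07 with row means above the 40th percentile, and from 0.70 to 0.85 with an array left out. The antiviral median was -0.14 with that filter on row means. Since every row is centred on its median, the filter keeps rows by where their mean lies against their middle, not by signal. It left 5 GTPase and 7 antiviral genes, and it is among the settings in which Eif2ak2 and Ifi27 passed. No called interferon-stimulated gene changed sign in any setting.

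Sign changes were seen in 10 genes that had not passed, and in Irf7, and the cause was not tested. With an array left out, changes ran from -0.35 to 0.011 for Ifit3, from -0.53 to 0.87 for Mx2, from -0.34 to 0.23 for Oas1a, from -0.060 to 0.15 for Igtp, from -0.39 to 0.044 for Ddx58, from -0.033 to 0.26 for Dhx58 and from -0.12 to 0.00083 for Irf7. After quantile normalization Igtp had -0.067 and Trim25 -0.00098, and after cyclic loess they had -0.096 and -0.027. With equal array medians Igtp had -0.056. Dhx58 had -0.010 after cyclic loess, and -0.11 both on its least variable probe set and on bright probe sets alone. Those same settings gave 0.21 for Tap1 and 0.087 for Cmpk2, and the least variable one gave -0.026 for Stat2. The filter on row means gave 0.42 for Ddx58 and 0.21 for Tap1.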

Other observations

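The 5 genes of the pathway lists with the smallest adjusted p above the threshold are given here. They were chosen after their values were seen and have no test beyond limma's. Tlr7, an endosomal receptor for single-stranded RNA, stood at -1.03 on the log2 scale (SE 0.25, adjusted p = 0.0586), and Ikbke, a kinase that activates IRF3, had -0.65 (SE 0.16, adjusted p = 0.0609). On the other side of 0, Apobec3, a cytidine deaminase that restricts retroviruses, had 0.96 (SE 0.22, adjusted p = 0.0528), Phf11d had 0.91 (SE 0.21, adjusted p = 0.0536) and Trim21, a receptor for antibody-bound virus, had 0.77 (SE 0.19, adjusted p = 0.061). Of all 36 other inducible genes, 14 were higher and 4 lower at an unadjusted p under 0.05, against 18.1% higher and 10.9% lower of all genes.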
